A study of Mus musculus with 4 samples.

Results

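The regions described here are 317 stretches of 100 kb on the mouse autosomes in which C2C12 myotubes gave fewer histone H3 positions than each of 3 other libraries. They were taken from 22127 autosomal bins of 100 kb, chromosome 8 left out, with a mean of at least 100 distinct read positions over the 4 libraries. The level of a bin is the log2 of its count over the median eligible bin of its chromosome in the same library. A bin was a member when its level in myotubes lay 0.3 or more below its level in every other library, which 1.43% of the eligible bins did. The measured values thus chose the members, and the myotube differences given below are a description without a test.

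The myotubes came from C2C12, a mouse myoblast line that had been switched for 48 h to medium with 2% horse serum, selenium, transferrin and insulin. The other libraries were the 38B9 pro-B line in RPMI with 10% FCS, V6.5 embryonic stem (ES) cells of C57BL/6-129 background kept in 10 uM SB431542 for 24 h, and V6.5 ES cells without treatment. Both ES cultures were grown on irradiated mouse fibroblasts and then passaged off them before crosslinking. SB431542 inhibits the TGF-beta type I receptor kinases. Each group had 1 library, all made with the same H3 antibody (Abcam AB1791, 1 lot), so no difference has a replicate check and each line stands for itself. The libraries held 13102915 (myotube), 13430107 (pro-B), 13852985 (SB431542) and 13494981 (untreated ES) distinct positions of reads with 1 place in the genome.

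Histone H3 is part of the core of every nucleosome, around which DNA is wrapped along the whole genome. An antibody to total H3 therefore recovers DNA from nearly everywhere, and local dips arise where nucleosomes are fewer or less stable, as at active promoters. C2C12 myoblasts leave the cell cycle and fuse into multinucleate myotubes when serum is withdrawn, and established lines of this kind often carry gains and losses of chromosome parts. No input library was used here, so fewer DNA copies and less H3 per copy cannot be told apart in any result below. The positions refer to the mouse build mm8, for which no genome or annotation was at hand, so no gene and no sequence is placed on them.

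The member bins were mostly small and shallow, and the working name of broad domains is not borne out by their lengths. Of the 317 members, 222 stood alone, and only 95 touched another member, in 41 runs. There were 31 runs of 2 bins, 7 of 3 bins and 3 of 4 bins, and no run was longer than 400 kb. The difference between the myotube level and the lowest other level had a median of -0.36, so that the typical member lay close to the limit that chose it. In 223 members (70.3%) the difference was between -0.4 and -0.3, in 49 between -0.5 and -0.4, in 30 between -1 and -0.5, in 11 between -2 and -1, and in 4 it was -2 or lower.

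Members on the border of the rule differed from the other libraries by nearly the same amount as bins that missed it. The 4 members closest inside the limit and the 4 bins closest outside it all had differences that round to -0.30. Chromosome 7 from 44300001 to 44400000, just inside, held 307 positions in myotubes, 484 in pro-B cells, 554 in SB431542-treated and 533 in untreated ES cells. Chromosome 12 from 4200001 to 4300000, just outside, held 436 in myotubes, 520 in pro-B cells, 572 in SB431542-treated and 579 in untreated ES cells. The limit therefore separates bins that differ by less than counting error.

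Most members were bins of above-median H3 recovery in the other 3 libraries and somewhat below the median in myotubes. The level over the members had a median of -0.27 in myotubes, 0.29 in pro-B cells, 0.14 in the SB431542 library and 0.15 in untreated ES cells. Untreated ES cells were above their chromosome median in 200 members (63.1%), against 49.8% of all eligible bins. Myotubes were above theirs in 35 of the 317 members, against 49.7% of all eligible bins. The rule sets these levels apart, so part of both shares is fixed by the choice. The spread was wide, with the lowest level at -9.01 in myotubes and at -2.55 in untreated ES cells.

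**Figure D1:**
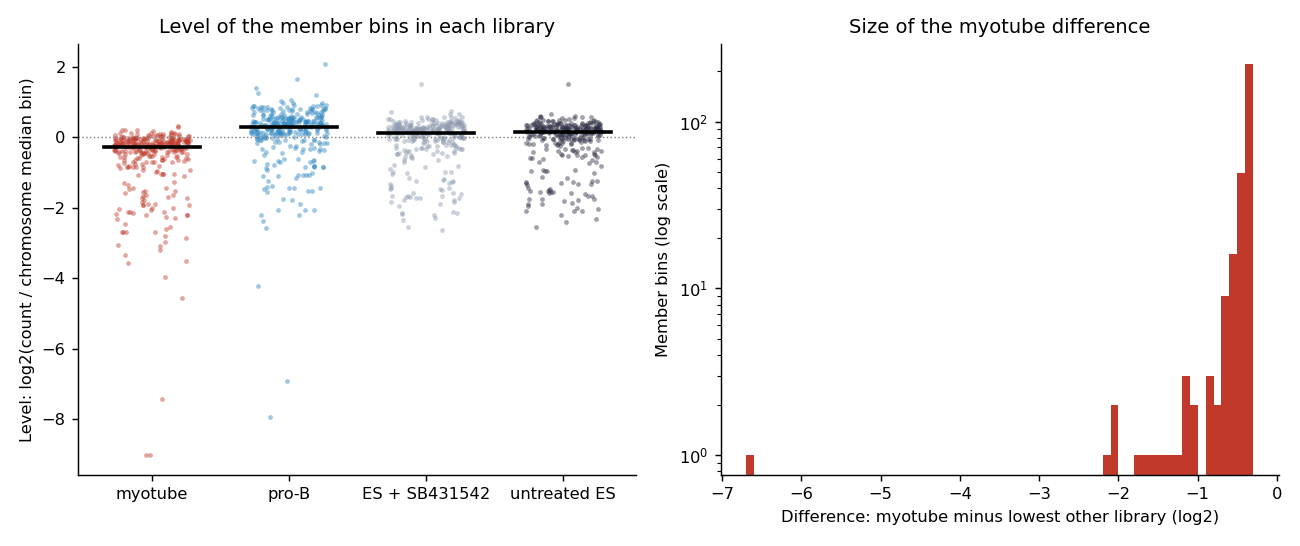
Left, level of each of the 317 member bins (points) in the 4 libraries, as log2 of the count over the median eligible bin of the chromosome, with the median as a black bar; a count of 0 is drawn at 3 counts. Right, number of members (log axis) by the myotube level minus the lowest other level, where 223 members lie between -0.4 and -0.3 and 1 lies below -3.

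The shallow and the deep members differed in what kind of bin they were. Among the 223 shallow ones (difference above -0.4), ES cells, taken as the mean of both libraries, were above the chromosome median in 161 (72.2%), and the median ES level was 0.19. Among the 45 members with a difference of -0.5 or lower, ES cells were above the median in 11 (24.4%), and the median ES level was -0.47. The deep members were also mixed in how far their sequence is repeated in the genome. Reads with 2 places, which the rule did not use, made up a median of 21.5% of the positions of the other 3 libraries in the deep members, 3.85% in the shallow ones and 2.98% over all eligible bins. In 23 of the 45 deep members the share was 20% or more, and the others, among them the bins on chromosome 4 from 88700001 to 89000000, had less.

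Across all bins, membership went with the share of 2-place positions. Of the 1006 eligible bins in which at least 20% of the positions of the other libraries had 2 places, 71 (7.06%) were members, against 177 of 17314 bins (1.02%) with under 5%. Membership also varied with depth. Of the 255 bins with a mean under 200 positions in the other libraries, 22 (8.63%) were members, against 80 of 12562 (0.637%) with 400 to 600 and 179 of 7876 (2.27%) with 600 or more. The share was thus lowest at a middling count, in classes formed from counts that the rule also used. The part of mappability and depth in these shares was not tested.

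The 2-place reads themselves were also fewer in myotubes within the members. The members held 3.62% of the 2-place positions of all eligible bins in myotubes, 6.08% in pro-B cells, 4.60% in SB431542-treated and 4.64% in untreated ES cells. For the 1-place positions, on which the members were chosen, these shares were 1.06%, 1.59%, 1.46% and 1.46% in the same order. In the 215 members with a mean of 20 or more 2-place positions, myotubes had the lowest share of the 4 libraries in 121 (56.3%), against 2166 of 9074 eligible bins (23.9%). These reads come from the same libraries, and they can be placed at the wrong copy.

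**Figure D2:**
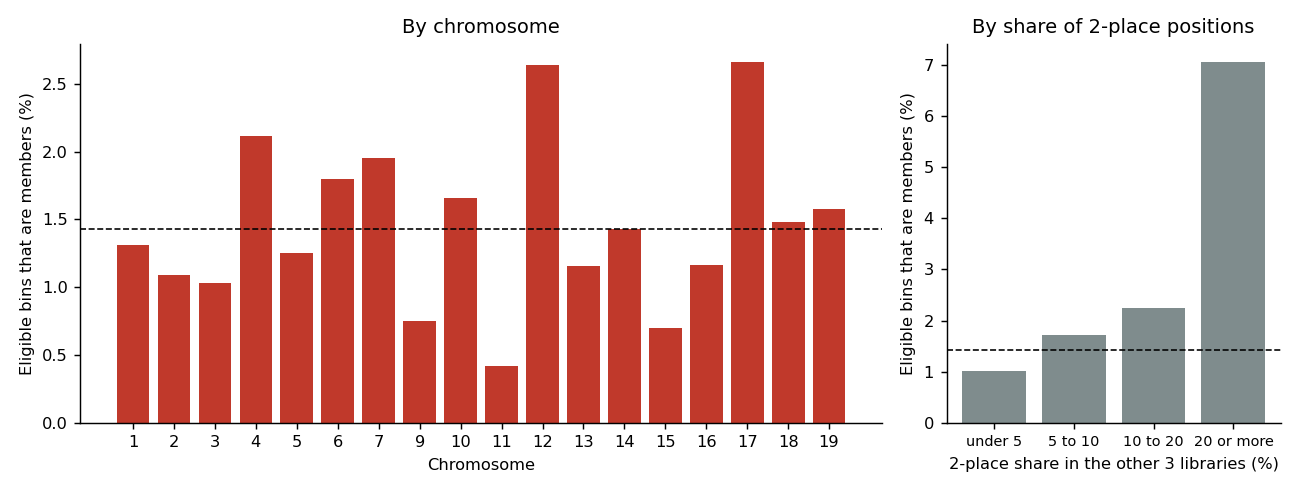
Left, percent of the eligible bins of each chromosome that are members. Right, the same by the share of 2-place positions in the other 3 libraries, at 1.02% of bins under 5% and 7.06% of bins at 20% or more; the dashed line is the 1.43% over all eligible bins.

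Among the 10 runs of 3 or more members, the one with the fewest myotube reads lay on chromosome 4 from 88700001 to 89000000. It held 225 positions in myotubes, 1678 in pro-B cells, 1310 in SB431542-treated and 1258 in untreated ES cells. The ratio of the myotube level to the lowest other level, that of untreated ES, was 0.195 (95% interval 0.168 to 0.225). This and the other intervals are exact conditional binomial intervals. They cover counting error only, because each group has 1 library. Amplified reads that carry no molecular identifier may also be copies of 1 molecule. Within the run, a stretch of 215 kb from 88735728 to 88950666 held no 1-place myotube position, while the longest empty stretch in the other libraries was between 50.1 and 50.7 kb. The windows centred 95 to 125 kb from the start of the run, inside this stretch, were empty in every library. On either side of the run, myotubes were near the level of the ES libraries. Their median 10 kb level in the adjoining 200 kb was 0.997 times the chromosome median. It was 0.959 times in untreated ES cells, 0.944 times with SB431542 and 1.16 times in pro-B cells. The middle bin, from 88800001 to 88900000, had 0 positions in myotubes, 481 in pro-B cells, 330 with SB431542 and 320 in untreated ES cells. Its few 2-place positions did not follow this, with 8 in myotubes, 15 in pro-B cells, 10 with SB431542 and 7 in untreated ES cells. Set at 3 counts per library as the limit that a count of 0 allows, its myotube level was at least 97.9-fold lower than in untreated ES cells. The 95% interval of the ratio, which is 2-sided and therefore wider, reached up to 0.0126.

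The run on chromosome 19 from 8800001 to 9100000 had another shape, a reduction over most of its length with no empty window. It held 1036 positions in myotubes, 2804 in pro-B cells, 2146 in SB431542-treated and 2127 in untreated ES cells. Its level was 0.540 times the lowest other level (0.501 to 0.581), with a difference of -0.89. In windows of 10 kb, the median level inside the run was 0.562 times the chromosome median in myotubes, 1.64 times in pro-B cells, 1.18 times in SB431542-treated and 1.16 times in untreated ES cells. In the adjoining 200 kb on each side, the myotube median was 0.897 and the untreated ES median 0.995. Myotubes lay under the lowest other library in 27 of the 30 windows. Centred 5 to 245 kb from the start of the run, the windows held 18 to 42 myotube positions, and the last 5, centred 255 to 295 kb from it, held 47 to 71. In the last 3 windows the myotube level was above both ES libraries, so the reduction ended inside the run. With this run, 5 members lay within 1.1 Mb, from 8800001 to 9900000. There, 6 of 7 eligible bins had their lowest level in myotubes, and the 5 members are among these by the rule.

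The runs on chromosomes 17 and 6 of 400 kb, and a second one on chromosome 4, had reduced but never empty myotube windows in sequence with few 2-place positions. On chromosome 17 from 26900001 to 27300000, myotubes held 1476 positions, pro-B cells 2960, SB431542-treated ES cells 2326 and untreated ES cells 2414. The ratio to the lowest other level was 0.676 (0.633 to 0.722). On chromosome 6 from 37500001 to 37900000 the counts were 2007 in myotubes, 2903 in pro-B cells, 3243 in SB431542-treated and 2889 in untreated ES cells. Its myotubes were below the lowest other library in 38 of 40 windows, with a ratio of 0.727 (0.686 to 0.770). All 3 other libraries were above their chromosome median in these runs on chromosomes 17 and 6, and myotubes were below theirs in both.

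A similar run lay on chromosome 4 from 133000001 to 133300000. It held 1184 positions in myotubes, 2086 in pro-B cells, 1818 in SB431542-treated and 1802 in untreated ES cells. Its ratio to the lowest other level was 0.716 (0.665 to 0.771), and its difference of -0.48 was part of a wider low stretch. When the running median of the neighbouring bins replaced the chromosome median, the difference was -0.26, short of the limit. On chromosome 13 from 68000001 to 68300000 the counts were 1043 in myotubes, 1478 in pro-B cells, 1539 in SB431542-treated and 1462 in untreated ES cells, a ratio of 0.749 (0.691 to 0.811). That run also held 2-place positions, with 486 in myotubes, 599 in pro-B cells, 572 in SB431542-treated and 608 in untreated ES cells.

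**Figure D3:**
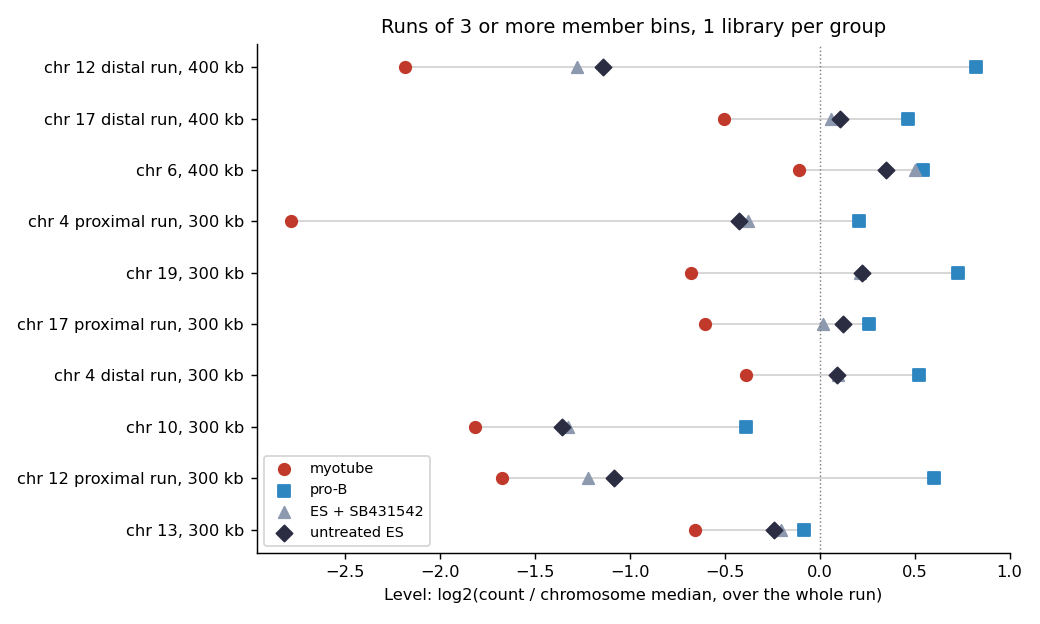
Level of each library (points) over the 10 runs of 3 or more members, as log2 of the run's count over the chromosome median. Myotubes are lowest in each run, as the rule requires, by -0.42 on chromosome 13 to -2.36 in the proximal run on chromosome 4.

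The remaining 4 long runs lay in sequence rich in 2-place positions. The run on chromosome 12 from 116000001 to 116400000 held 476 positions in myotubes, 3674 in pro-B cells, 950 in SB431542-treated and 1021 in untreated ES cells. Its ratio to the lowest other level was 0.534 (0.477 to 0.597). A second one on chromosome 12, from 115000001 to 115300000, held 509 in myotubes, 2368 in pro-B cells, 742 in SB431542-treated and 797 in untreated ES cells, a ratio of 0.731 (0.652 to 0.819). The distal end of mouse chromosome 12 carries the immunoglobulin heavy chain genes, which pro-B cells rearrange, but whether these bins hold them was not determined. Myotubes were below both ES libraries there as well as below pro-B cells, as the rule requires of every member. The 2-place positions of the run from 116000001 were also fewest in myotubes and most in pro-B cells, with 696 in myotubes, 4318 in pro-B cells, 1269 in SB431542-treated and 1179 in untreated ES cells.

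On chromosome 17 from 6200001 to 6500000, much of the sequence was covered by 2-place reads. Only 11 of its 30 windows of 10 kb had a mean of at least 20 positions in the other libraries. The myotube level in its windows had a median of 0.0668 times the chromosome median and reached 4.12 times. Every library had an empty stretch of 67.7 to 71.8 kb, so the difference rests on part of the run. Positions of 1-place reads numbered 1034 in myotubes, 1926 in pro-B cells, 1696 in SB431542-treated and 1828 in untreated ES cells, a ratio of 0.650 (0.601 to 0.702). Positions of 2-place reads numbered 1971 in myotubes, 4056 in pro-B cells, 3054 in SB431542-treated and 3397 in untreated ES cells. Both kinds of read thus had their lowest count in myotubes. On chromosome 10 from 21800001 to 22100000 the 1-place counts were 478 in myotubes, 1281 in pro-B cells, 700 in SB431542-treated and 668 in untreated ES cells. With 2-place reads added, its difference was -0.24 in place of -0.46, short of the limit.

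**Figure D4:**
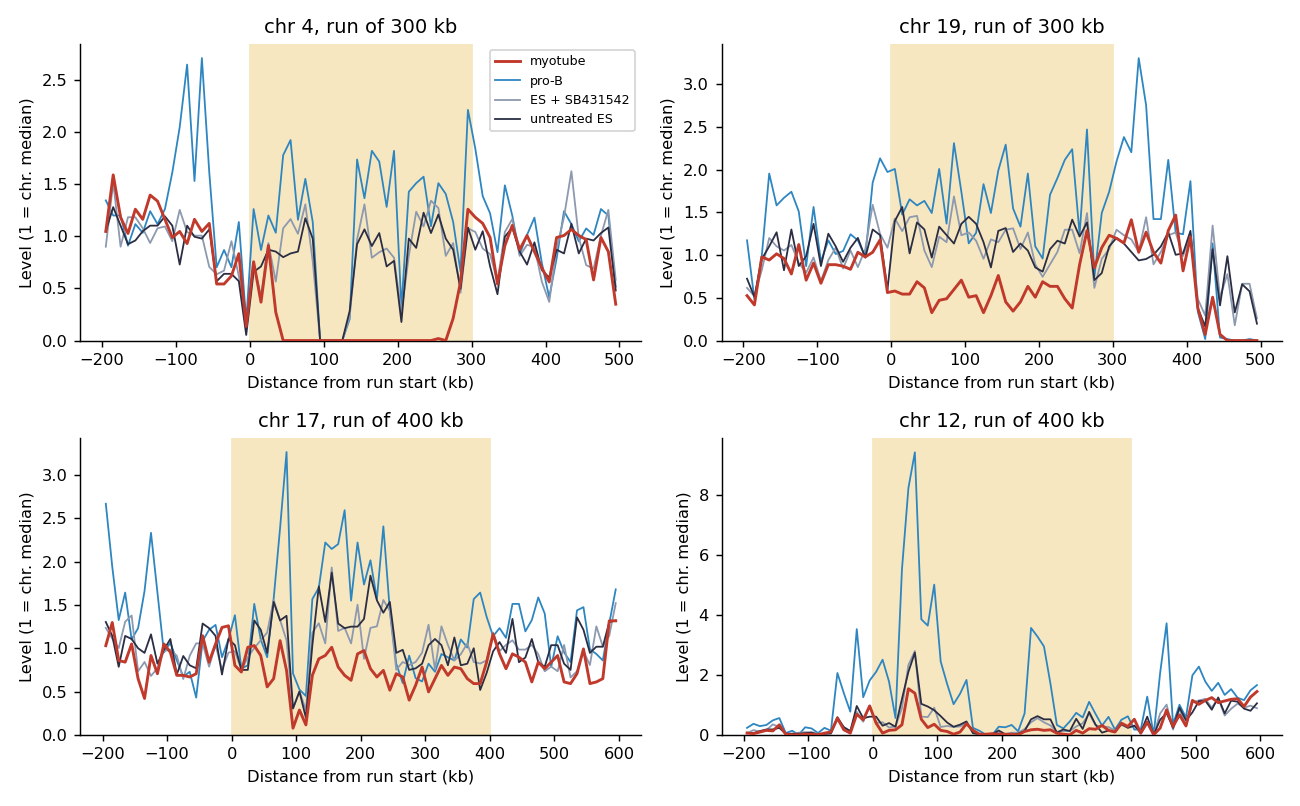
Level in windows of 10 kb (1 is the chromosome median) across 4 runs (shaded) and 200 kb on each side, for the proximal run on chromosome 4, the run on chromosome 19, the distal run on chromosome 17 and the distal run on chromosome 12. Myotubes are at 0 through most of the chromosome 4 run and at a median of 0.562 across the chromosome 19 run.

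Among members outside these runs, the largest difference was on chromosome 1 from 8100001 to 8200000. It held 76 positions in myotubes, 316 in pro-B cells, 451 in SB431542-treated and 361 in untreated ES cells. The longest stretch without a position there was 33101 bp in myotubes, against 7644 bp in pro-B, 7128 bp in SB431542-treated and 6737 bp in untreated ES cells. On chromosome 12, 2 neighbouring members from 115600001 to 115800000 held 46 and 35 positions in myotubes, 559 and 290 in pro-B cells, 149 and 114 in SB431542-treated, and 140 and 113 in untreated ES cells. These bins belong to the distal stretch from 114000001 to 116400000, where 13 members lay among 23 eligible bins. Of the 23, 17 had their lowest level in myotubes, and the 13 members are among these by the rule. Over all eligible bins, the myotube level was above the lowest other level in 71.9%. On chromosome 12 from 88600001 to 88700000 the counts were 64 in myotubes, 155 in pro-B cells, 162 in SB431542-treated and 185 in untreated ES cells.

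A pair of members on chromosome 4 were almost empty in pro-B cells too, so the rule holds there on very few reads. From 121500001 to 121600000 there was 1 position in myotubes and 4 in pro-B cells, against 418 in SB431542-treated and 382 in untreated ES cells. The ratio of myotubes to pro-B cells was 0.234, with an interval from 0.00476 to 2.37 that includes 1. From 111700001 to 111800000 there was 1 position in myotubes and 2 in pro-B cells, against 225 in SB431542-treated and 230 in untreated ES cells. These bins separate the ES line from both other lines. In 40 of the 317 members the interval of the ratio to the lowest other library lay wholly below the limit of the rule, and in the others it reached past it.

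The bin on chromosome 13 from 120600001 to 120700000 lies at the last covered part of that chromosome. It held 70 positions in myotubes, 335 in pro-B cells, 212 in SB431542-treated and 197 in untreated ES cells. The empty stretch of about 85.7 kb in all 4 libraries lies past the last 1-place position of the chromosome, at most 120614331. The difference thus rests on a small part of the bin. Members were somewhat frequent at chromosome ends, with 24 in the last 5 Mb of covered sequence (7.57% of members, against 3.99% of eligible bins) and 17 in the first 5 Mb (5.36% against 3.96%). In a separate count that can include members at the ends, 21 (6.62%, against 1.43% of eligible bins) bordered a bin under the minimum count or the end of the covered sequence.

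At 10 kb resolution, the reduction was spread over most windows of a member and was seldom a loss of all reads. Windows were used where the other 3 libraries had a mean of at least 20 positions. Myotubes were below the lowest other library in 2175 of 2762 such windows of members (78.7%), against 26.1% of the windows of all eligible bins. They were under 50% of the lowest other level in 135 windows (4.89%, against 0.152%). They were empty in 49, against 63 over all eligible bins, members included. The windows divide the same counts that chose the members, so part of these shares is fixed by the choice. The empty windows lay in 16 of the 317 members, against 29 of all 22127 eligible bins. No window was under 50% of the lowest other level in 249 members, against 21881 of all eligible bins. Myotubes had an empty stretch of 10 kb or more, with none in any other library, in 16 members (5.05%) and in 0.800% of all eligible bins (177 bins). Pro-B cells alone had such a stretch in 2 members (0.631%, against 0.723% of eligible bins), SB431542-treated ES cells alone in 3 (0.946% against 0.407%), and untreated ES cells alone in 0 (against 0.348%).

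The reduction did not stop at the border of the member bins. The myotube level minus the mean level of the other 3 libraries had a median of -0.45 in single members, -0.26 in the bins 100 kb away, -0.13 at 500 kb and -0.09 at 1000 kb, against -0.02 over all eligible bins. For runs of 2 or more bins it was -0.55 inside, -0.26 at 100 kb, -0.16 at 500 kb and -0.13 at 1000 kb. At 100 kb, 94.1% of the bins beside single members were below 0, against 68.8% at 1000 kb. The share over all eligible bins was not counted, but their median of -0.02 is itself below 0. By construction the adjoining bins are not members, which keeps their values above those inside. Over the runs of 2 or more bins, the mean level in the outermost 25 kb inside the border was 0.682 times the chromosome median in myotubes and 0.915 times in untreated ES cells. In the first 25 kb outside it was 0.778 times in myotubes and 0.892 times in untreated ES cells. Pro-B cells, which enter the mean of the other 3 libraries, were at 1.12 times there, so part of these differences is a high pro-B level. Set against the lowest other mean level, myotubes were at 0.749 times in the outermost 25 kb inside. They were at 0.873 times in the first 25 kb outside and 0.959 times in the step centred 987.5 kb outside.

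**Figure D5:**
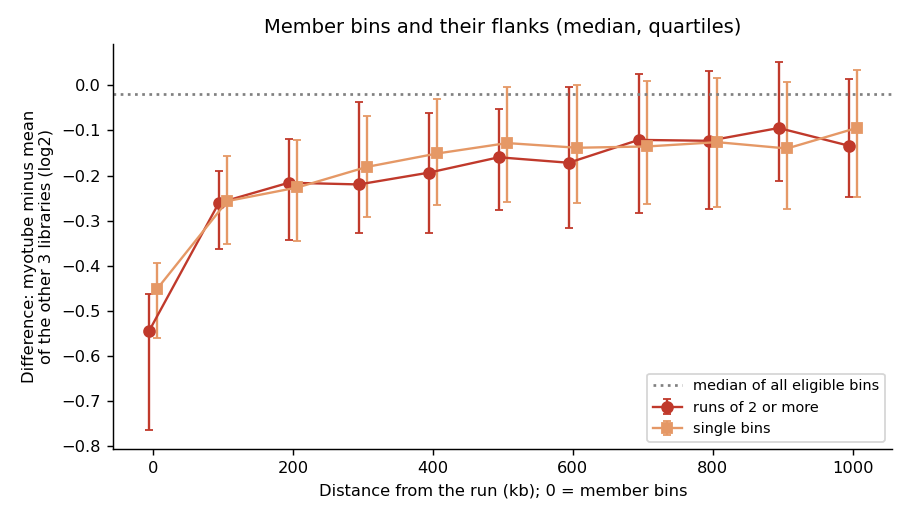
Median and quartiles of the myotube level minus the mean level of the other 3 libraries (log2) in member bins (0 kb) and in eligible bins up to 1000 kb away, for single members and for runs of 2 or more. The dotted line at -0.02 is the median over all eligible bins; both curves are below it out to 1000 kb.

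Another member lay within 1 Mb of 182 of the 317 (57.4%), against 18.4% of all eligible bins. Joining members with up to 5 other bins between them, a distance chosen after the data were seen, gave 8 groups of 4 or more members, which held 42 members in all. Besides those on chromosomes 12, 19, 17, 6 and 13, the groups lay on chromosomes 4 and 7. On chromosome 4 from 137000001 to 138000000, myotubes had the lowest level in 9 of 10 bins. From 24200001 to 25400000 on chromosome 7, they had it in 12 of 12. In each of these stretches, myotubes are lowest in the 4 members by the rule. On chromosome 7 the counts over the stretch were 3578 in myotubes, 6973 in pro-B cells, 6126 in SB431542-treated and 6316 in untreated ES cells, and the difference to the lowest other level was -0.30.

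By chromosome, the share of eligible bins that were members ran from 0.422% on chromosome 11 (5 bins) to 2.66% on chromosome 17 (24 bins). Chromosome 12 followed with 2.64% (29 bins), of which 13 lay in the distal stretch, and chromosome 4 with 2.11% (31 bins). Chromosomes 7 and 15 differ as a whole in myotubes, which the median of each chromosome takes out. The median bin of chromosome 7 held 400 positions in myotubes, 470 in pro-B cells, 556 in SB431542-treated and 564 in untreated ES cells. That of chromosome 15 held 682 in myotubes, 528 in pro-B cells, 574.5 in SB431542-treated and 567 in untreated ES cells. Members made up 1.95% of chromosome 7 and 0.697% of chromosome 15.

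The strands of the reads gave a check on how much the choice itself adds to the differences. Bins chosen on plus strand positions alone numbered 454, with a median difference of -0.35 on that strand. The same bins had -0.19 on the minus strand, against a median of 0.14 over all eligible bins. There, 405 (89.2%) were still below 0. On both strands together, the difference was above 0 in 71.9% of all eligible bins. On the minus strand 130 (28.6%) passed the limit, against 2.11% of all eligible bins. Chosen on the minus strand, 466 bins had -0.37 there and -0.19 on the plus strand. Bins measured on reads that did not choose them thus differed by less. Of the 317 members, 130 passed the limit on each strand separately, and these were 41 of the 45 with a difference of -0.5 or lower but 52 of the 223 above -0.4. Both strands come from the same chromatin, so this bears on counting error and not on variation between cultures.

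The other libraries can be set side by side within the members. SB431542-treated minus untreated ES had a median of 0.01 over the members, as over all eligible bins, and an SD of 0.0989 over the members against 0.115. The ES libraries thus differed from each other no more in the members than elsewhere. Both ES levels entered the rule, and members held more positions in the other libraries (median 639 against 563). The part of these in the SD was not tested. The ES libraries came from different sequencing runs, so treatment and run cannot be told apart. Pro-B minus untreated ES had a median of 0.18 over the members and 0.04 over all eligible bins, and it was above 0 in 77.9% of members and 55.0% of eligible bins. The rule sets a floor under the pro-B level, so part of this is fixed by the choice. Pro-B cells were 0.3 or more above both ES libraries in 92 members (29.0%, against 21.6% of eligible bins) and 0.3 or more below both in 11 (3.47%, against 8.75%).

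The same rule applied to other libraries and directions gives a scale for the 317 bins. Myotubes were 0.3 or more above every other library in 154 bins (0.696%). Pro-B cells were below every other library in 1201 bins (5.43%) and above in 4102 (18.5%). For each ES library, the other library of the same line was among the 3 it was set against. SB431542-treated ES cells were lowest in 8 bins (0.0362%) and highest in 16 (0.0723%), and untreated ES cells were lowest in 16 (0.0723%) and highest in 6 (0.0271%). Set against myotubes and pro-B cells alone, SB431542-treated ES cells were lowest in 235 bins (1.06%) and highest in 397 (1.79%), and untreated ES cells were lowest in 376 (1.7%) and highest in 419 (1.89%). Myotubes were 0.3 or more above both ES libraries in 335 bins (1.51%). In single pairs, the myotube level was 0.3 or more below that of pro-B cells in 5947 bins (26.9%), of SB431542-treated ES cells in 1288 (5.82%) and of untreated ES cells in 1289 (5.83%). Of the 682 bins (3.08%) with myotubes 0.3 or more below both ES libraries, 317 (46.5%) were also below pro-B cells and so were members. In 213 bins both myotubes and pro-B cells were 0.3 or more below both ES libraries.

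Repeated reads were as frequent in members as elsewhere in myotubes and somewhat more frequent in the other libraries. Repeats made up 3.46% of myotube reads in members, against 3.44% in all eligible bins. In the other libraries they were 4.54% against 2.83% (pro-B), 6.25% against 5.51% (SB431542-treated ES) and 3.43% against 2.82% (untreated ES). Plus strand positions were 50.2% of those in members in myotubes and between 49.8% and 50.0% in the other libraries.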

How the data were processed

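The files the authors deposited list aligned reads as signed genome positions, in which a negative sign marks the minus strand; they hold no counts or scores. Alignment used Bowtie and mm8, per the file headers (options -e 70 -k 2 -m 2 -n 2 -l 36; the release is "not given in the sources used here"), where the SB431542 library has a run name of its own. Per the labels' protocols, sonicated chromatin was amplified over PCR cycles and size-selected. Sections of the files were read as reads with 1 place and with 2 places, from their names and the options.

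Reads that shared position and strand were counted once, and 1-place positions were summed in bins of 100 kb (Python 3.11.15, numpy 2.4.6, scipy 1.17.1). The median bin was taken over eligible bins. The rule was tested on simulated counts. No group has a second library, so none was tested against another. The members and the lists were chosen with earlier results of these data known. Named regions were all runs of 3 or more members (at most 12), the 10 members with the lowest difference, and the 4 bins nearest the limit on each side; the other bins named were chosen after their values were seen. Alternatives covered repeats, 2-place reads, scaling, limit, minimum count, bin borders and size, strand and left-out libraries.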

Additional observations from a re-analysis of the deposited data

Results flagged for a closer look

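In 7 of the 10 runs of 3 or more members, myotubes and pro-B cells lay on opposite sides of the ES cells, with myotubes below and pro-B cells at least 0.3 above both ES libraries. With 1 library per line this opposition was not tested. The rule chose the myotube side and set a floor under the pro-B level, so part of the opposition is fixed by the choice. Taken bin by bin, pro-B cells were 0.3 or more above both ES libraries in 29.0% of members and 21.6% of all eligible bins. Myotube minus untreated ES was -1.04 on chromosome 12 from 116000001 to 116400000, where pro-B minus untreated ES was 1.96. On chromosome 12 from 115000001 to 115300000 these differences were -0.59 and 1.69, and on chromosome 10 from 21800001 to 22100000 they were -0.46 and 0.97. These 3 runs were rich in 2-place positions, whose part was not tested. On chromosome 4 from 88700001 to 89000000 the differences were -2.36 for myotubes and 0.63 for pro-B cells, and from 133000001 to 133300000 they were -0.48 and 0.43. On chromosome 19 from 8800001 to 9100000 they were -0.90 and 0.51, and on chromosome 17 from 26900001 to 27300000 they were -0.61 and 0.36.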

How the results depend on the processing

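No paired analysis was possible because each group has 1 library. The number of members depends first on the limit and the scaling. It was 1222 with a limit of -0.2 and 45 with -0.5 (236 and 9 runs of 2 or more), and 804 with 111 runs when 1 autosomal median replaced that of each chromosome, 524 of them on chromosome 7. With 1 other library left out it was between 596 and 682, with 93 to 102 runs. Bins of 50 kb gave members over 51.65 Mb in 122 runs, against 31.7 Mb in 41, and bins of 200 kb gave 11 runs. The median difference of the members, -0.36 here, was -0.34 with 2-place reads added, -0.31 with a running median, -0.39 without either ES library, and -0.19 on the strand that did not choose the bins. Bins chosen on 1 strand numbered 454 and 466. The remaining settings, those chosen after the data were seen included, gave between 285 and 364 members, and 247 of the 317 were kept with 2-place reads, 165 with the running median and 200 overlapped members when bins began 50 kb later. Of 100 recomputed values for the 10 named runs, 91 lay within the counting interval of the value given; these reuse the reads that chose the runs and show no stability. At limits of 0.2 and 0.5, myotubes were highest in 826 and 5 bins, pro-B cells lowest in 2620 and 189 and highest in 1800 at 0.5. Untreated ES cells were lowest in 220 and 1 and highest in 123 and 0, and SB431542-treated ES cells lowest in 85 and 0 and highest in 124 and 0. The cause was not tested where the setting itself does not set it.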
